A study of Homo sapiens with 8 samples.

Results

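The CXC chemokines considered here are 10 of the 54628 genes in the count table, taken as a list of gene symbols. They are CXCL1, CXCL2, CXCL3, CXCL5, CXCL6 and CXCL8, which carry the ELR motif, the interferon-type pair CXCL10 and CXCL11, and the homeostatic pair CXCL12 and CXCL16. Chemokines are small secreted proteins that guide migrating cells, and the CXC family is named for the residue between its first cysteines. ELR chemokines bind CXCR1 and CXCR2 and attract neutrophils. CXCL10 and CXCL11 are induced by interferons and attract T cells through CXCR3. CXCL12 retains and attracts cells through CXCR4, while CXCL16 is a membrane-anchored ligand of CXCR6. Senescent fibroblasts are known to secrete ELR chemokines as part of the senescence-associated secretory phenotype, in which interleukin-1 and NF-kappaB are known inducers.

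Polyadenylated RNA was sequenced in 8 libraries of IMR90, a human fetal lung fibroblast line, in 4 groups of 2. In every group the cells expressed telomerase (hTERT) and carried pINDUCER20 with N-terminally Flag-tagged YAP5SA, a constitutively active form of the Hippo pathway coactivator YAP whose expression doxycycline switches on. Proliferating cells were untreated or received doxycycline at 1 ug/ml for 11 days. Senescent cells were harvested 9 days after 24 h of bleomycin, a DNA-breaking drug, at 10 ug/ml, and received either no doxycycline or the same dose for the final 11 days. No group without the transgene received doxycycline, so an effect of the drug and one of the transgene cannot be told apart. Nothing in the labels says that the libraries of a group came from separate cultures, and p-values then measure only the spread between these samples, which may be technical. Libraries held 33627708 to 39692162 counts. Levels are counts per 1e6 (CPM) of a library's TMM-scaled total, given as mean ± SD with n = 2. Changes are log2 changes with their standard error (SE) from edgeR's quasi-likelihood test, called at a Benjamini-Hochberg adjusted p under 0.05 over all 17155 genes tested.

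The gene of the transgene, YAP1, measured 198 and 195 CPM in proliferating libraries, 190 and 238 CPM with doxycycline, 190 and 223 CPM in senescent libraries and 291 and 287 CPM with doxycycline. It rose with doxycycline in senescent cells (log2 0.48, SE 0.10, adjusted p = 0.00140), while the difference in proliferating cells was 0.12 (adjusted p = 0.431). Which part of these reads came from the transgene is unknown, so they do not measure its induction. The fibroblast markers COL1A1, COL1A2, COL3A1, PDGFRB, THY1 and DCN were all detected. Their summed level was 18960 to 19030 CPM in proliferating cells, 11490 to 12220 with doxycycline, 20320 to 21460 in senescent cells and 6535 to 8525 where these had received doxycycline. Thus this sum moved with doxycycline. In proliferating cells 5 of the 6 fell, all but THY1 (adjusted p = 0.284), where 10.4% of all genes tested were called lower. In senescent cells 5 of the 6 fell, all but DCN, where 23.8% were called lower. DCN fell in proliferating cells (log2 -1.24) and rose in senescent ones. The part of this shift in the chemokine results was not tested. Epithelial markers summed to at most 2.265 CPM. The endothelial sum of 45.75 to 155 CPM was nearly all TEK, and the leukocyte sum of 52.34 to 169.3 CPM nearly all CD68, while PTPRC stayed at or below 0.252 CPM. TEK averaged 69.3 CPM in proliferating cells, 47.8 with doxycycline, 144 in senescent cells and 101 with doxycycline. CD68, a lysosomal protein that fibroblasts also make, averaged 69.9, 53.1, 146 and 63.9 CPM in the same order, so that it rose with bleomycin (2.09-fold, adjusted p = 2.89e-06) and fell with doxycycline in senescent cells (2.29-fold, adjusted p = 2.28e-06), as most chemokines did. The epithelial marker CDH1, at no more than 1.15 CPM, rose with doxycycline in both states. The part of these markers in the chemokine results was not tested. In bulk RNA, fewer cells making a transcript and less transcript per cell cannot be told apart. When libraries were scaled by their totals alone, the median change over all genes moved from 0.01 to -0.16 for bleomycin without doxycycline and from 0.00 to 0.17 for doxycycline in senescent cells. The share of called genes that were higher then went from 50.3% to 37.1% and from 48.7% to 69.3%, and for the difference between the states from 40.7% to 70.4%.

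The members lie in separate clusters. The ELR genes occupy chromosome 4 (GRCh38.p14), from CXCL8 at chr4:73740569-73743716 and CXCL6 at chr4:73836678-73838760 through CXCL1 at chr4:73869393-73871308 on the plus strand, to CXCL5 at chr4:73995642-73998677, CXCL3 at chr4:74036589-74038689 and CXCL2 at chr4:74097040-74099195 on the minus strand. CXCL10 at chr4:76021118-76023497 and CXCL11 at chr4:76033682-76036070 are neighbours on the minus strand. Both lie within the span of ART3, a gene on the opposite strand with which they share no exon bases. CXCL12 is at chr10:44370165-44385097 and CXCL16 at chr17:4733533-4739928, both on the minus strand. CXCL16 shares 85 exon bases with MED11 on the opposite strand. The close paralogs CXCL1, CXCL2 and CXCL3, and likewise CXCL5 and CXCL6, can share reads, and how the authors counted such reads is not given in the sources used here.

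The 5 tested ELR members rose with bleomycin and fell with doxycycline in senescent cells, but with doxycycline in proliferating cells only CXCL8 fell. The promoters of all 6 are shown for a feature they share, and its part in these changes was not tested. The RefSeq promoter table (GRCh38.p14, 250 bases before to 50 after each gene start) held 9 of the 10 members. CXCL16 was missing, so CXCL12 alone stands for the homeostatic pair here. The longest run of letters common to all 6 ELR promoters was the 9-base GGAATTTCC, found in this comparison and not chosen beforehand. It, or its reverse complement GGAAATTCC, was also in the CXCL10 and CXCL11 promoters but not in that of CXCL12. Of 35116 promoters in the table, 162 (0.461%) held it on either strand. The stretches around it are given 5′ to 3′ on the gene's own strand, with the run in capitals.
CXCL1, chr4:73869305-73869333: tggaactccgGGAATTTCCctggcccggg
CXCL2, chr4:74099254-74099282: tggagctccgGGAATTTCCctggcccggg
CXCL3, chr4:74038749-74038777: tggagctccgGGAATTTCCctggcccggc
CXCL5, chr4:73998749-73998777: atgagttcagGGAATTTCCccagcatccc
CXCL6, chr4:73836579-73836607: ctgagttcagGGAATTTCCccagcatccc
CXCL8, chr4:73740468-73740496: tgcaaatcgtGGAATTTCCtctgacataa
CXCL10, chr4:76023655-76023683: aggagcagagGGAAATTCCgtaacttgga
CXCL11, chr4:76036127-76036155: actcaaagagGGAAATTCCtgtgccataa
The run began 75 to 91 bases before the gene start, except in CXCL10, where it began 176 bases before. CXCL1, CXCL2 and CXCL3 also shared most flanking letters, as did CXCL5 and CXCL6.

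A search of both strands for a kappa-B-like pattern that overlaps this run (GGG, any 3 bases, TTCC) matched 7 of the 9 member promoters, against 6.52% of all promoters. CXCL8 and CXCL12 had no match to these letters. An interferon-response-like pattern (GAAA, any 2 bases, GAAA) matched only CXCL10 among the 9, 221 bases before its start (3.57% of all promoters). The AP-1-like TGANTCA matched CXCL8, 137 bases before its start, and CXCL11, 87 before (7.71% of all promoters). The TEAD-like GGAATG matched only CXCL10, at base 5 of the gene and so past the stretch shown (14.0% of all promoters). The 250 bases before the start of CXCL8, CXCL10 and CXCL12, the most abundant member of each class in proliferating cells, follow with all matches in capitals.
CXCL8, chr4:73740319-73740568, plus strand: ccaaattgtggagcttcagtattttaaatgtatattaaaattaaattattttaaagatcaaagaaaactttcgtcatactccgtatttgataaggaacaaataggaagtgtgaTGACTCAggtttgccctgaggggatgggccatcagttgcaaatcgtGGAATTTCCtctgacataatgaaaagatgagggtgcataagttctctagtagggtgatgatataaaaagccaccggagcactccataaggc
CXCL10, chr4:76023498-76023747, minus strand: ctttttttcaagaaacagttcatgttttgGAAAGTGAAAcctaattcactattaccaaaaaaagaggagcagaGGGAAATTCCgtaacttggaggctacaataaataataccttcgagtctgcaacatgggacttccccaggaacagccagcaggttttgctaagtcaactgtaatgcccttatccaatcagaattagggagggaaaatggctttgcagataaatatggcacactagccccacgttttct
CXCL12, chr10:44385098-44385347, minus strand: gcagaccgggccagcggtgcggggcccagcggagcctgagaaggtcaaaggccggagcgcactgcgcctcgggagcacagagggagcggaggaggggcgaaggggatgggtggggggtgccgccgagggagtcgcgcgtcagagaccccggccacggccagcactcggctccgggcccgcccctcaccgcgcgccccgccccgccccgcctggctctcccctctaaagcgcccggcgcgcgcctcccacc
The CXCL8 stretch holds TGACTCA and then GGAATTTCC, the CXCL10 stretch holds GAAAGTGAAA and then GGGAAATTCC, and the CXCL12 stretch holds none of the patterns searched. A match is a description of letters and no measurement of binding.

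Filtering bears on the ELR class. CXCL6 had 3 counts in all, in senescent cells without doxycycline (1 and 2), and was not tested. The filter asked for about 0.263 CPM in 2 libraries, which CXCL5 reached only in senescent cells without doxycycline and CXCL1 and CXCL3 only in senescent cells. CXCL11 reached it in 1 proliferating library besides the senescent ones. These genes entered the test through the group where they are high, so counts of called members describe them and support nothing further.

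Bleomycin without doxycycline asks which chemokines mark the senescent state. Both chemoattractant classes rose steeply, by 13.5-fold to 66.6-fold for the members other than CXCL5, while CXCL12 fell. Of the 9 members tested, 8 rose (all 5 tested ELR genes, CXCL10, CXCL11 and CXCL16) and 1 fell, where 29.8% of all genes tested were called higher and 29.4% lower.

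CXCL8, the interleukin-8 gene and a strong neutrophil attractant, led in every group. It measured 19.4 and 17.1 CPM in the proliferating libraries and 1222 and 831 CPM in the senescent ones, a log2 rise of 5.82 (SE 0.22, adjusted p = 2.1e-06). The senescent libraries lay far above the proliferating ones and differed from each other by far less than from them. CXCL1, also known as GRO-alpha, rose from 0.112 ± 0.0895 to 4.58 ± 0.373 CPM (log2 5.32, SE 0.48, adjusted p = 1.4e-08). CXCL2 rose from 0.295 ± 0.204 to 4.03 ± 0.756 CPM (log2 3.75, SE 0.41, adjusted p = 6e-07). CXCL3 rose from 0.0498 ± 0.0359 to 1.88 ± 0.0765 CPM (log2 5.16, SE 0.77, adjusted p = 1.24e-06). CXCL1, CXCL2 and CXCL3 thus rose 13.5-fold to 39.96-fold and CXCL8 rose 56.3-fold. Whether CXCL8 rose more than these genes was not tested. CXCL5 had 0 counts in both proliferating libraries and 14 and 16 in the senescent ones, at least 11.8-fold higher when 3 counts over the group stand for 0 (adjusted p = 0.000296).

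CXCL8 accordingly made up nearly all ELR counts. Its share was 97.4% (95% Wilson interval 96.1 to 98.3) and 97.7% (96.3 to 98.6) in proliferating libraries and 99.05% (98.95 to 99.13) and 98.8% (98.65 to 98.9) in senescent ones. With doxycycline it was 92.55% (87.9 to 95.5) and 93.6% (89.9 to 96.0) in proliferating libraries, and 99.3% in both senescent ones. The lowest shares were thus in doxycycline-treated proliferating cells, and these intervals cover counting error only.

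The interferon-type pair rose 47.1-fold and 66.6-fold. CXCL10 measured 1.64 and 3.03 CPM in proliferating libraries and 125 and 94.9 CPM in senescent ones (log2 5.56, SE 0.34, adjusted p = 2.96e-05). CXCL11 measured 0.244 and 0.351 CPM in proliferating libraries against 20.4 and 19.6 CPM in senescent ones (log2 6.06, SE 0.29, adjusted p = 1.29e-11). CXCL9, the other interferon-induced neighbour, had 1 count in proliferating cells and 19 in senescent cells over both libraries and did not pass the filter.

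Of the homeostatic pair, CXCL12 went down, from 8.52 and 8.37 CPM to 2.80 and 2.95 CPM, 2.94-fold lower (log2 -1.55, SE 0.18, adjusted p = 2.74e-06). CXCL16 measured 0.439 and 0.551 CPM in proliferating and 1.34 and 0.578 CPM in senescent libraries (log2 0.96, SE 0.40, adjusted p = 0.0479). The lower senescent library of CXCL16 lay just above the proliferating ones, and without senescent replicate 1 the change was 0.22 with an adjusted p of 0.696. Its call was lost in 14 of 18 alternatives, where the adjusted p ran from 0.00537 to 0.696 over all 18. In proliferating cells CXCL8 counts were 2.27 and 2.05 times those of CXCL12 in the same library, and in senescent cells 437 and 282 times.

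**Figure D1:**
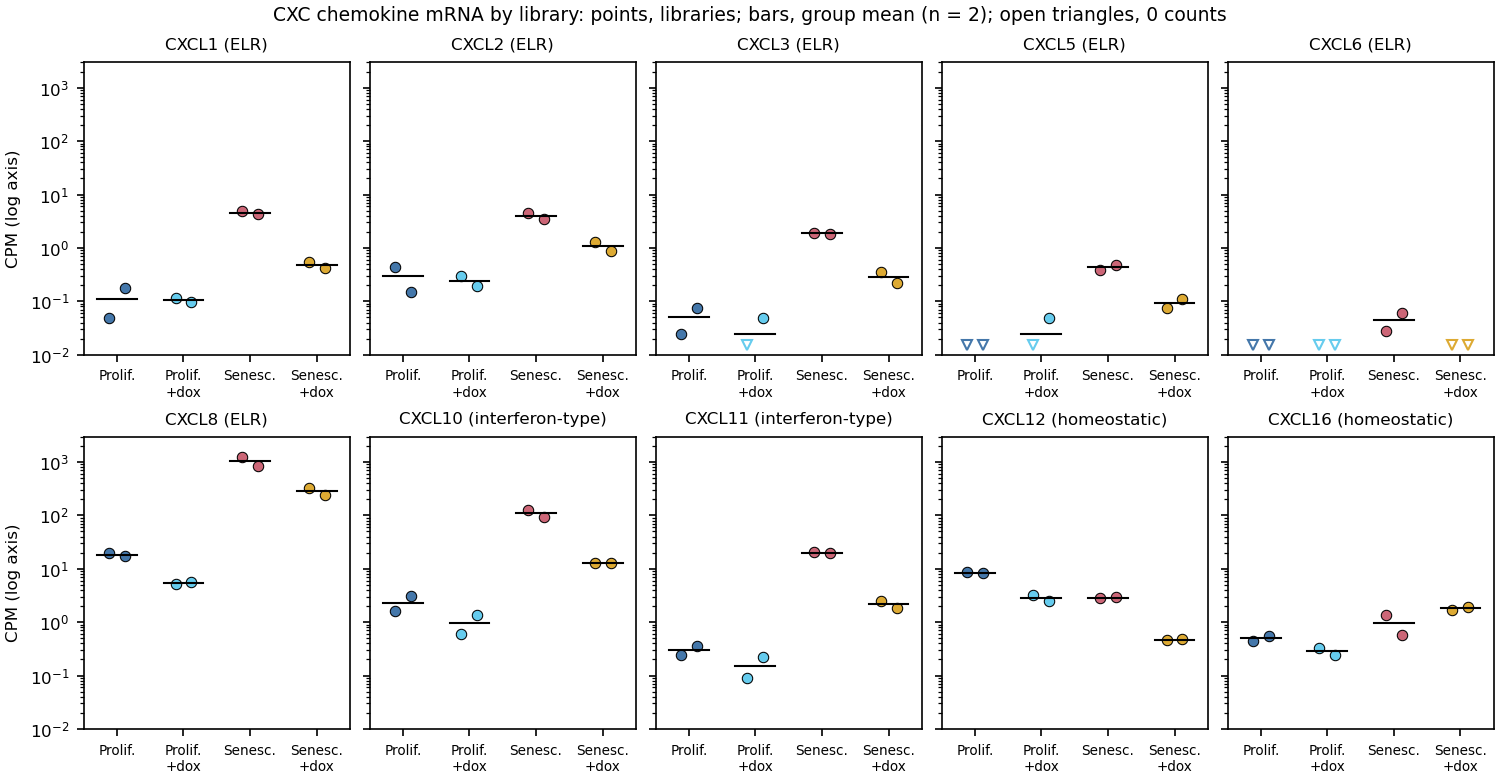
Level of each member in each library (CPM, log axis) in the 4 groups, with points for libraries, bars for group means and open triangles for 0 counts. CXCL8 is highest in all groups, the senescent libraries of the ELR and interferon-type genes sit above the proliferating ones, and CXCL12 goes down from 8.44 to 0.467 CPM across the groups.

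Doxycycline in senescent cells compares bleomycin-treated cells given the inducer of YAP5SA with those not given it. By the times in the labels doxycycline began before bleomycin, so it did not reach cells that were already senescent. Every ELR and interferon-type member tested fell, CXCL12 fell further, and CXCL16 alone of the 9 had a higher level. In numbers, 8 of 9 members fell and none rose, where 23.8% of all genes tested were called lower and 22.6% higher.

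CXCL8 fell from 1222 and 831 CPM to 321 and 240 CPM, 3.66-fold (log2 -1.87, SE 0.21, adjusted p = 0.000527). CXCL1 fell most among the ELR genes, from 4.84 and 4.32 CPM to 0.535 and 0.420 CPM, 9.51-fold (log2 -3.25, SE 0.33, adjusted p = 1.01e-06). CXCL3 fell from 1.93 and 1.82 CPM to 0.356 and 0.224 CPM, 6.37-fold (log2 -2.67, SE 0.45, adjusted p = 0.000133). With doxycycline all of these stood below their senescent level in both libraries but above their proliferating libraries. CXCL2 fell from 4.56 and 3.496 CPM to 1.27 and 0.867 CPM (log2 -1.91, SE 0.33, adjusted p = 0.000252). CXCL5 fell from 14 and 16 counts to 3 and 4 (log2 -2.19, SE 0.78, adjusted p = 0.0212). The CXCL5 call rests on these few counts: it was lost without senescent replicate 2 (adjusted p = 0.0915), without doxycycline-treated senescent replicate 1 (adjusted p = 0.138) or replicate 2 (adjusted p = 0.0750), with DESeq2 (adjusted p = 0.148) and in the test against a 1.5-fold change.

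CXCL10 fell from 125 and 94.9 CPM to 12.76 and 12.75 CPM, 8.60-fold (log2 -3.11, SE 0.27, adjusted p = 0.000330). CXCL11 fell from 20.4 and 19.6 CPM to 2.44 and 1.87 CPM, 9.23-fold (log2 -3.21, SE 0.19, adjusted p = 4.43e-09). The 2 interferon-type genes kept a like ratio to each other: CXCL10 counts were between 4.83 and 8.64 times those of CXCL11 in all 8 libraries. CXCL8 and CXCL10 did not. CXCL8 counts were 9.82 and 8.76 times those of CXCL10 in senescent libraries and 25.1 and 18.8 times in senescent libraries with doxycycline. The ratio of CXCL8 to CXCL1 likewise went from 252 and 193 to 600 and 572. The doxycycline-treated senescent libraries held only 21 and 15 CXCL1 counts. In proliferating cells the CXCL8 to CXCL10 ratio was 11.84 and 5.645 without and 8.70 and 4.255 with doxycycline. There the CXCL8 to CXCL1 ratio was 396.5 and 97.6 without and 43.5 and 58.5 with it, on 2 to 7 CXCL1 counts. Neither ratio thus rose with doxycycline in proliferating cells.

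CXCL12 fell from 2.80 and 2.95 CPM to 0.458 and 0.475 CPM, 6.12-fold (log2 -2.61, SE 0.25, adjusted p = 3.07e-07). CXCL16 measured 1.34 and 0.578 CPM without and 1.68 and 1.93 CPM with doxycycline, a log2 difference of 0.90 (SE 0.36) that missed the threshold (adjusted p = 0.0506). Its senescent libraries were wide apart, and without senescent replicate 1 the difference was 1.64 with an adjusted p of 0.00656.

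**Figure D2:**
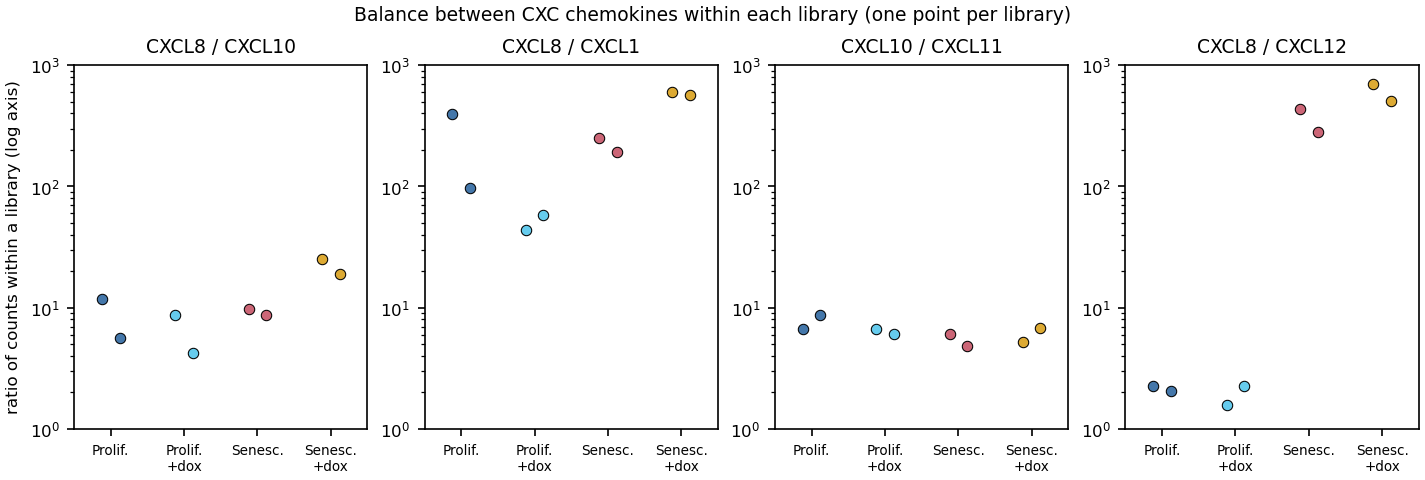
Ratio of the counts of 2 members within each library (log axis), 1 point per library, in the 4 groups. The CXCL10 to CXCL11 ratio stays between 4.83 and 8.64, while the CXCL8 to CXCL10 ratio is highest in senescent cells with doxycycline at 25.1 and 18.8.

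Doxycycline in proliferating cells gives the background of the same treatment without bleomycin. CXCL8 and CXCL12 fell, and no other member passed the test. That is 2 of 9 lower and 0 of 9 higher, where 10.4% of all genes tested were called lower and 12.6% higher. CXCL8 fell from 19.4 and 17.1 CPM to 5.12 and 5.68 CPM (log2 -1.75, SE 0.27, adjusted p = 0.00419). Leaving out doxycycline-treated proliferating replicate 1 or replicate 2 ended this call, with adjusted p-values of 0.0804 and 0.0602. CXCL12 fell from 8.52 and 8.37 CPM to 3.24 and 2.50 CPM (log2 -1.56, SE 0.18, adjusted p = 1.46e-05), a level like that of senescent cells without doxycycline. CXCL10 measured 1.64 and 3.03 CPM without and 0.588 and 1.34 CPM with doxycycline (log2 -1.23, SE 0.51, adjusted p = 0.147). This difference passed without proliferating replicate 1 (adjusted p = 0.0281) and without robust estimation (adjusted p = 0.0282). CXCL11 had a log2 difference of -0.89 (adjusted p = 0.189) and CXCL16 one of -0.81 (adjusted p = 0.233). CXCL1, CXCL2 and CXCL3, at no more than 18 counts per library, had overlapping libraries and adjusted p-values of 0.649 to 0.966, so that a difference was not detectable at this depth.

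Whether the effect of doxycycline differed between bleomycin-treated and proliferating cells was tested as the difference of its log2 effects. Since doxycycline began before bleomycin, this equally compares the bleomycin response with and without doxycycline. Of the 9 members 3 were called, all with a more negative effect in senescent cells, where 19.9% of all genes tested were called in either direction. The difference was -3.19 for CXCL1 (SE 0.72, adjusted p = 0.00719), -2.32 for CXCL11 (SE 0.48, adjusted p = 0.00528) and -1.05 for CXCL12 (SE 0.31, adjusted p = 0.0221). The CXCL1 value rests on 2 to 7 counts per proliferating library, too few to detect a change there. CXCL8 stood at the other end, with a difference of -0.12 (SE 0.34, adjusted p = 0.845), its falls being 3.37-fold and 3.66-fold in the 2 states. This does not show that the CXCL8 effects were equal. CXCL2 (-1.61, adjusted p = 0.0803), CXCL10 (-1.88, SE 0.57, adjusted p = 0.0895) and CXCL16 (1.71, SE 0.59, adjusted p = 0.0507) were not called. CXCL2 passed without proliferating replicate 1 (-2.57, adjusted p = 0.0199) and with no filter (adjusted p = 0.0382). CXCL10 passed without proliferating replicate 2 (adjusted p = 0.0158), without doxycycline-treated proliferating replicate 1 (0.0498), with limma-voom (0.0296), without robust estimation (0.0117) and with the stricter filter (0.0497). CXCL16 passed without senescent replicate 1 (2.45, adjusted p = 0.0101). The CXCL11 call was lost without doxycycline-treated proliferating replicate 2 (log2 -1.49, adjusted p = 0.323), and that of CXCL12 in 10 of 18 alternatives (adjusted p from 0.011 to 0.298). Leaving out either proliferating library gave CXCL12 adjusted p-values of 0.0807 and 0.0888, leaving out doxycycline-treated proliferating replicate 1 gave 0.0534, and leaving out either doxycycline-treated senescent library gave 0.0908 and 0.0657.

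**Figure D3:**
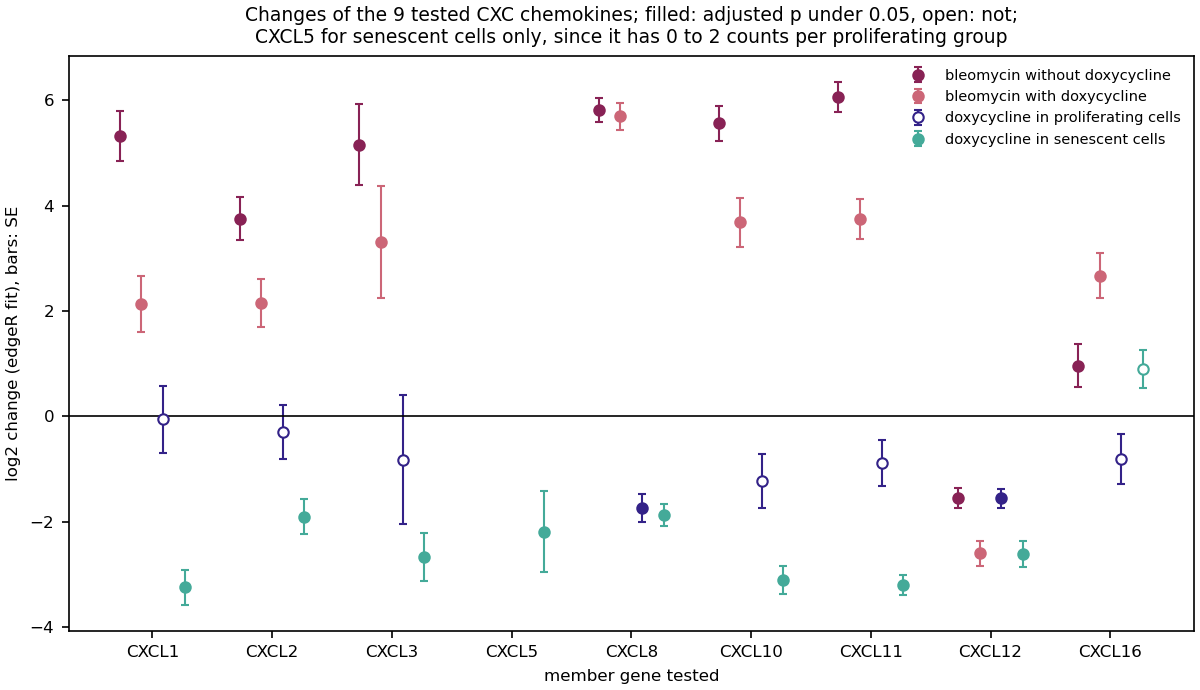
Log2 change of each tested member in 4 comparisons (points, with bars for the SE of the fit), filled where the adjusted p is under 0.05. CXCL5 is drawn for doxycycline in senescent cells only, since it had 0 to 2 counts per proliferating group. CXCL8 has nearly the same position for doxycycline in both states (-1.75 and -1.87), and CXCL16 is the only member above 0 for doxycycline in senescent cells.

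Bleomycin in cells that received doxycycline shows the chemokine rise in the presence of doxycycline. Of the 9 members 7 rose and 1 fell, where 26.8% of all genes tested were called higher and 28.7% lower. CXCL8 rose by a log2 of 5.69 (SE 0.26, adjusted p = 3.7e-06), from 5.12 and 5.68 to 321 and 240 CPM. CXCL10 rose by 3.68 (SE 0.46, adjusted p = 0.000534), CXCL11 by 3.74 (SE 0.38, adjusted p = 6.96e-08), CXCL1 by 2.13 (SE 0.53, adjusted p = 0.00156) and CXCL2 by 2.14 (SE 0.46, adjusted p = 0.000592). CXCL3 had 2 counts in proliferating and 22 in senescent cells over both libraries, a ratio of 11.02 with a 95% counting interval of 2.71 to 96.7 (adjusted p = 0.00252). CXCL5 had 2 and 7 counts, a ratio of 3.51 with an interval of 0.668 to 34.6, and was not called (adjusted p = 0.230). CXCL16 rose here, from 0.324 and 0.243 CPM to 1.68 and 1.93 CPM (log2 2.67, SE 0.43, adjusted p = 5.25e-05). CXCL12 fell by 2.61 on the log2 scale (SE 0.24, adjusted p = 1.52e-07).

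Compared with untreated proliferating cells, senescent cells with doxycycline still had higher levels of 8 members and a lower level of CXCL12, where 30.6% of all genes tested were called higher and 30.4% lower. CXCL8 was 15.4-fold higher (adjusted p = 1.02e-05), CXCL11 7.22-fold (adjusted p = 2.21e-07) and CXCL10 5.47-fold (adjusted p = 0.00136). CXCL16 was 3.63-fold higher (adjusted p = 0.000512) and CXCL12 17.97-fold lower (log2 -4.17, SE 0.24, adjusted p = 2.5e-10). For CXCL12 both treatments thus went the same way, and the doubly treated cells had the lowest level of the 4 groups. The CXCL5 and CXCL3 calls in this comparison were weak: without proliferating replicate 1 their adjusted p-values were 0.0873 and 0.0606, and CXCL5 also lost its call without proliferating replicate 2 (adjusted p = 0.0846) or doxycycline-treated senescent replicate 2 (adjusted p = 0.0870), and CXCL3 without doxycycline-treated senescent replicate 1 (adjusted p = 0.0623).

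Set against each other per kilobase of exon, CXCL8 was first and CXCL10 second by group mean in every group. In proliferating cells CXCL8 was at 8.02 ± 0.698 CPM per kb, followed by CXCL10 at 1.98 ± 0.839 and CXCL12 at 1.39 ± 0.0175, and CXCL10 and CXCL12 overlapped between libraries. They also overlapped in proliferating cells with doxycycline, at 0.818 ± 0.449 and 0.472 ± 0.0857 CPM per kb. In proliferating cells without doxycycline CXCL2, CXCL16, CXCL11 and CXCL1 followed between 0.197 and 0.0865 CPM per kb, each overlapping the next. In senescent cells the order was clear at the top: CXCL8 at 451.5 ± 122, CXCL10 at 93.3 ± 17.9 and CXCL11 at 10.5 ± 0.267 CPM per kb. CXCL12 had dropped to the seventh place at 0.473 ± 0.0173 and overlapped CXCL16. With doxycycline, senescent cells had CXCL8 at 123 ± 25.1 and CXCL10 at 10.85 ± 0.00228 CPM per kb, and CXCL16 at 0.646 ± 0.0631 overlapped CXCL2 and stood above CXCL1, CXCL3 and CXCL12.

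The receptor genes add a feature on the CXCL12 side. Of 8 CXC receptors listed, 4 passed the filter, and the receptors of the ELR and interferon-type ligands did not: CXCR1 had 1 count, CXCR2 none and CXCR3 2 counts over all 8 libraries. CXCR4, the signalling receptor of CXCL12, had 0 counts in both untreated proliferating libraries, 3.74 and 3.28 CPM with doxycycline, 1.06 and 1.00 CPM in the senescent group and 60.9 and 76.2 CPM in its doxycycline-treated counterpart. Its order over the groups was thus not that of its ligand, and the group with the least CXCL12 had the most CXCR4. CXCR4 rose with doxycycline, 66.03-fold in senescent cells (log2 6.05, SE 0.19, adjusted p = 2.75e-12) and at least 93.95-fold in proliferating cells when 3 counts stand for 0 (adjusted p = 3.94e-09). In senescent cells CXCR4 counts were 0.380 and 0.340 of those of CXCL12 in the same library, and with doxycycline 133 and 160 times as many.

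ACKR3, a scavenging receptor of CXCL12 and CXCL11, rose with bleomycin from 0.395 ± 0.0277 to 1.67 ± 0.171 CPM (log2 2.07, SE 0.32, adjusted p = 3.51e-05). In senescent cells with doxycycline it measured 1.63 ± 0.146 CPM (log2 -0.04, SE 0.27, adjusted p = 0.925). CXCR6, the receptor of CXCL16, was at 0.364 CPM or less in every library and was not called in these comparisons. CXCR5 is not interpreted, since 88.6% of its exon bases overlap BCL9L on the opposite strand. None of 7 other CXC ligands passed the filter. The platelet chemokine genes PF4 and PF4V1, which lie between the ELR members, had 0 counts, and PPBP had 4.

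**Figure D4:**
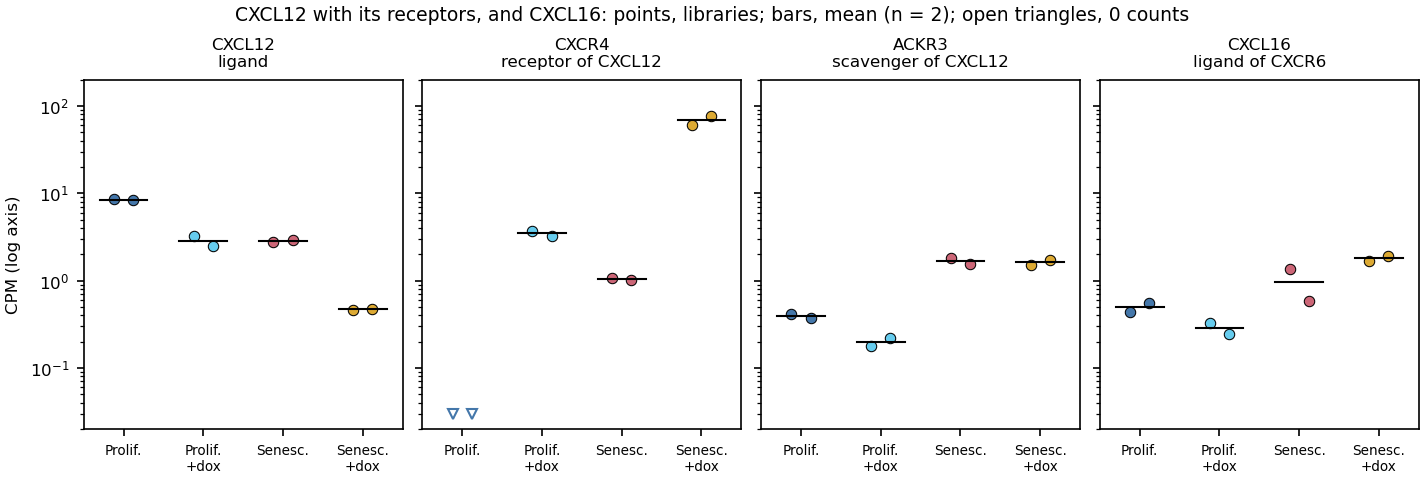
Levels (CPM, log axis) of CXCL12, of its receptors CXCR4 and ACKR3, and of CXCL16 in each library, with points for libraries, bars for group means and open triangles for 0 counts. CXCL12 is lowest (0.467 CPM) where CXCR4 is highest (68.6 CPM).

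Of the enzymes that process CXC ligands, DPP4, which trims the N termini of CXCL10, CXCL11 and CXCL12, rose with bleomycin from 79.4 ± 1.06 to 289.5 ± 1.61 CPM (log2 1.87, adjusted p = 8.97e-12). In senescent cells with doxycycline it fell to 154.6 ± 4.14 CPM (log2 -0.91, adjusted p = 8.43e-08). ADAM10 and ADAM17, which can shed CXCL16, rose with bleomycin by 0.21 (adjusted p = 0.0378) and 0.50 (adjusted p = 3.81e-05) on the log2 scale. All 3 enzymes thus rose with bleomycin, where 29.8% of all genes tested were called higher, and against a 1.5-fold change 1 rose. With doxycycline in senescent cells 2 fell (DPP4 and ADAM10) and 0 rose, where 23.8% of all genes tested were called lower and 22.6% higher. The count of 2 was 1 under 8 of 19 alternatives, among them each fit without a proliferating replicate, without senescent replicate 2 or without doxycycline-treated senescent replicate 1.

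The listed NF-kappaB and interleukin-1 genes include the cytokines and factors known to induce ELR chemokines. Of 16 genes 15 were tested, and TNF had 0 counts. With bleomycin 13 rose and 2 fell (CEBPB and CEBPD), beside 29.8% and 29.4% of all genes tested, with a median log2 change of 0.74 against 0.01 over all genes. With doxycycline in senescent cells 11 fell and 1 rose (CEBPB), beside 23.8% and 22.6%, with a median of -0.46 against 0.00. IL1A, an upstream cytokine of the secretory phenotype, rose with bleomycin from 0.610 and 0.326 CPM to 133 and 84.8 CPM (log2 7.85, SE 0.57, adjusted p = 1.29e-05), and fell with doxycycline to 20.8 and 16.4 CPM (log2 -2.55, SE 0.25, adjusted p = 0.000571). IL1B rose by 5.84 and fell by 2.21 on the same scale. IL1A, IL1B and CXCL8 thus had the same order of mean levels over the 4 groups. With doxycycline in proliferating cells CXCL8 fell, but IL1A (log2 -0.39, adjusted p = 0.799) and IL1B (log2 -1.20, adjusted p = 0.132) were not called. CXCL8 counts were 31.7 and 52.5 times those of IL1A in proliferating libraries and 9.17 and 9.79 times in senescent ones. Senescent replicate 1 was the higher for these genes, as it was for CXCL10, CXCL1 and CXCL2. A link between them was not tested. IL1R1, the receptor that IL1A and IL1B bind, rose by 0.50 with bleomycin and fell by 1.82 with doxycycline in senescent cells (adjusted p = 2.24e-06). NFKBIA, an NF-kappaB target and inhibitor, rose by 1.41 and fell by 1.17. TNFAIP3, another such inhibitor, rose by 3.22 with bleomycin, and its difference with doxycycline in senescent cells was -0.24 (adjusted p = 0.0537). In proliferating cells with doxycycline 6 of the 15 genes fell and 1 rose, beside 10.4% and 12.6% of all genes tested, with a median of -0.30. Without proliferating replicate 1, proliferating replicate 2 or doxycycline-treated proliferating replicate 1 the 6 became 3, 2 and 3, and the 2 that fell with bleomycin became 1 without proliferating replicate 2. Against a 1.5-fold change, 7 rose with bleomycin and 4 fell with doxycycline in senescent cells.

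The interferon list holds the receptors, regulators and sensors upstream of CXCL10 and CXCL11. IFNB1 had 4 counts in senescent cells, 1 in those with doxycycline and 0 in proliferating cells, and was not tested. Of the other 11 genes, 8 rose and 2 fell (IRF3 and CGAS) with bleomycin, beside 29.8% and 29.4% of all genes tested. With doxycycline in senescent cells 8 fell and 0 rose, beside 23.8% and 22.6%. Scaled by totals alone, or without doxycycline-treated senescent replicate 1, 5 fell. The medians were 0.695 and -0.39, against 0.01 and 0.00 over all genes. IRF7, which amplifies interferon production, rose by 3.92 (SE 0.41, adjusted p = 3.32e-07) and fell by 1.70 (SE 0.32, adjusted p = 0.000487). IRF1, an interferon-induced transcription factor, rose by 0.55 and fell by 1.38. In proliferating cells with doxycycline 4 of these 11 genes fell and 0 rose, beside 10.4% and 12.6% of all genes tested (1 rose without doxycycline-treated proliferating replicate 1). Against a 1.5-fold change, 5 rose with bleomycin and 2 fell with doxycycline in senescent cells.

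**Figure D5:**
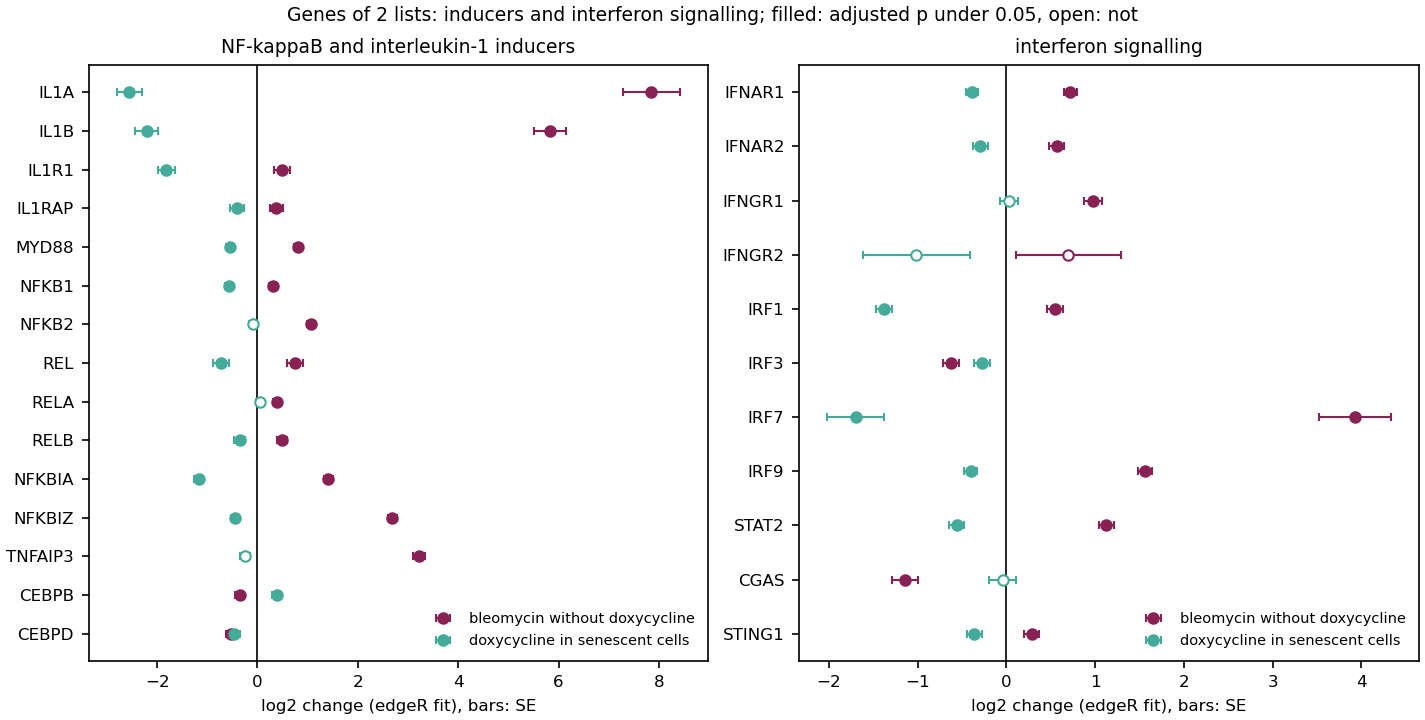
Log2 changes (points, with bars for the SE) of the tested genes of the NF-kappaB and interleukin-1 list (left) and the interferon list (right) for bleomycin without doxycycline and doxycycline in senescent cells, filled where the adjusted p is under 0.05. Most genes sit to the right of 0 for bleomycin and to its left for doxycycline, with IL1A farthest out at 7.85 and -2.55.

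The 7 listed mRNA decay factors, of which several bind AU-rich elements in chemokine transcripts, were all tested. The list also holds ELAVL1, which is known to stabilise such transcripts. With bleomycin 2 rose and 5 fell, where 29.8% of all genes tested were called higher and 29.4% lower. With doxycycline in senescent cells 1 rose and 4 fell, where the shares were 22.6% and 23.8%. The median log2 changes were -0.70 and -0.37, against 0.01 and 0.00 over all genes. The gene that rose in the latter comparison was ZFP36L1 (log2 0.21, adjusted p = 0.0491), a call lost in 11 of 19 alternatives, among them the fits without either proliferating library, senescent replicate 2 or either doxycycline-treated senescent library. Scaled by totals alone 2 fell, and against a 1.5-fold change 1 fell. ZC3H12A, the endonuclease Regnase-1, rose with bleomycin from 5.07 ± 0.326 to 31.7 ± 4.49 CPM (log2 2.64, adjusted p = 9.24e-11), and fell with doxycycline to 6.14 ± 0.0115 CPM (log2 -2.37, adjusted p = 1.07e-09). Its mean levels across the groups had the same order as those of CXCL8, highest in senescent and lowest in doxycycline-treated proliferating cells. ZFP36L2, which promotes decay of such transcripts, fell with bleomycin (log2 -1.28, adjusted p = 2.29e-09) and again with doxycycline in senescent cells (log2 -0.49, adjusted p = 0.000209).

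Over the 8 libraries the members fell into like patterns, given here as descriptions without a test because the 8 points share 4 groups. Pearson r of log2 CPM was 0.996 between CXCL10 and CXCL11, 0.995 between CXCL3 and CXCL11 and 0.900 between CXCL1 and CXCL8. In proliferating libraries CXCL1 had 2 to 7 counts, CXCL3 0 to 3 and CXCL11 3 to 14, few beside the prior count of 2. CXCL1 and CXCL3 also entered the test only through senescent libraries. A high r with these genes was therefore largely set by their low proliferating counts. CXCL12 had a negative r with all other tested members, from -0.240 with CXCL1 to -0.699 with CXCL16. Among 9459 well-expressed genes the patterns most like CXCL8 were those of CCDC50 (r = 0.999) and EPSTI1 (r = 0.998). In the 4 groups (proliferating, with doxycycline, senescent, with doxycycline) CXCL8 averaged 18.2, 5.40, 1027 and 280 CPM. EPSTI1 measured 3.09, 1.53, 54.1 and 19.96 CPM, but CCDC50 only 170.8, 156.2, 219.3 and 203.9 CPM. An r takes no account of the size of a change. For CXCL10 they were MYO1E and FAM167A (both r = 0.997). The nearest to CXCL12 were ASH2L and PAK1 (both r = 0.996), then TNFRSF11B and PTN (both r = 0.995). TNFRSF11B, at 282, 152.5, 154.7 and 43.7 CPM, and PTN, at 104.5, 41.5, 45.2 and 10.96 CPM, had a range nearer to that of CXCL12. By rank (Spearman rho) they were less like it, at 0.929 and 0.857, than ASH2L and PAK1 (both 0.976). CXCL16 was matched less closely, by SIAH2 (r = 0.984) and IRF2BP2 (r = 0.981, Spearman rho 0.905).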

How the data were processed

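The values are raw read counts per gene as the authors deposited them, in 8 columns, 1 per library, over 54628 genes. The submitters' processing notes list featureCounts 1.6.3, HISAT2 2.1.0 and Trimmomatic 0.36, and hg38 as the build. Per the labels' protocols the libraries came from a stranded mRNA kit. The annotation, the strand option and the handling of shared reads were not given in the sources used here.

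Groups follow the treatments in the labels. Genes passing filterByExpr (17155) were TMM-scaled and fitted over all 8 libraries, without a replicate block, with edgeR 4.0.16 (robust quasi-likelihood, 4 residual degrees of freedom, common biological coefficient of variation 0.0904) in R 4.3.3. The 6 contrasts were tested two-sided with Benjamini-Hochberg adjustment over all genes tested. Log2 CPM used a prior count of 2. Where a group had no counts, folds are bounds from 3 counts over the group (0.0371 to 0.0437 CPM). Deviations from the group means correlated by -0.0121 to 0.159 between same-numbered libraries, so the numbers were not taken to pair libraries. CPM per kb used the exon union of GENCODE 29, and promoters came from RefSeq. Plots were drawn with matplotlib 3.10.9. The fit was tested on simulated data.

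The members and gene lists (CXC receptors, other CXC ligands, processing enzymes, NF-kappaB and interleukin-1 inducers, interferon signalling, mRNA decay factors, and fibroblast, epithelial, endothelial and leukocyte markers) were chosen with earlier results of these data known; 1 gene of the interferon list is not reported here. Named are all members, genes of these lists, chromosomal neighbours, and the genes nearest in pattern to CXCL8, CXCL10, CXCL12 and CXCL16. Alternatives were limma-voom (limma 3.58.1), DESeq2 1.42.0 and, within edgeR, its size factors, scaling by totals, no filter, a filter at a mean log2 CPM of 1, a fit of the compared groups alone, either replicate number as a block, no robust estimation, glmTreat against 1.5-fold, and leaving out each library.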

Additional observations from a re-analysis of the deposited data

Results flagged for a closer look

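For 3 members the log2 effect of doxycycline differed between senescent and proliferating cells in the test of the difference itself with edgeR's quasi-likelihood test. The difference, senescent minus proliferating, was -3.19 for CXCL1, -2.32 for CXCL11 and -1.05 for CXCL12. In the proliferating libraries CXCL1 had 2 to 7 counts, CXCL11 3 to 14 and CXCL12 103 to 349. The CXCL1 call held in the 17 alternatives that gave a value, with an adjusted p of at most 0.0391, while those of CXCL11 and CXCL12 were lost in 1 of 17 and 10 of 18 alternatives. The alternatives refit the same few counts, and CXCL1 entered the test only through senescent libraries, so they lend its call no further support. No group had 4 or more libraries, so single outlying libraries were not looked for.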

How the results depend on the processing

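Of the members' log2 changes recomputed under an alternative, 906 kept their direction and side of the threshold, 41 lost and 23 gained a call, and 11 changed sign. Against a 1.5-fold change, fewer of all genes were called: 4350 instead of 10155 and 3547 instead of 9519 for bleomycin without and with doxycycline, 689 instead of 3938 and 2159 instead of 7951 for doxycycline in proliferating and senescent cells, 517 instead of 3407 for the difference between the states, and 4823 instead of 10467 for the doubly treated against untreated cells. Filtered at a mean log2 CPM of 1, members called higher went from 8, 7 and 8 to 2 each (bleomycin without, with, and doubly treated cells) and those lower with doxycycline in senescent cells from 8 to 3, because fewer members were tested. With the description's replicate number as a block, genes called for doxycycline in proliferating cells were 2353 and members higher in doubly treated cells 5. CXCL16 with doxycycline in senescent cells, making members higher 1 and not 0, passed with total counts only, limma-voom, no filter, only the libraries compared and either replicate block, and its difference between the states with total counts, no filter and either block. The CXCL2 difference between the states also passed with either block (adjusted p = 0.0263 and 0.0215). The block changed no other count of members by over 1.5 times, and the causes were not tested.

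With 1 library left out, genes called ranged from 2029 to 4166 for doxycycline in proliferating cells (lowest without proliferating replicate 2 and, at 2069, replicate 1) and from 1851 to 3879 for the difference (1928 and 1851 without proliferating replicates 1 and 2, 2012 without doxycycline-treated senescent replicate 1). Members lower in proliferating cells ranged from 1 to 3. Members higher with doxycycline in senescent cells, and those with a higher difference, ranged from 0 to 1.

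Reversals concerned only changes that were not called. For doxycycline in proliferating cells CXCL1 was at 0.17 with limma-voom, CXCL2 at 0.42 with the description block, and left-out ranges were -0.70 to 1.08 for CXCL1, -0.86 to 0.67 for CXCL2, -3.97 to 0.10 for CXCL3 and 0 to 3.98 for CXCL5, whose fitted values depend on the prior count. For the difference between the states, CXCL8 was at 0.065 with total counts only, with left-out ranges of -0.37 to 0.18 for CXCL8 and -2.77 to 1.29 for CXCL3. Depth limits CXCL5, CXCL6, and CXCL1 to CXCL3 in proliferating cells.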
